A study of Mus musculus with 4 samples.

Results

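The cells described here passed a gate for type 2 conventional dendritic cells (cDC2) among CD45+ immune cells of mouse skin, 267 of 13124 kept cells in 4 libraries. Members were selected on their own UMI counts (unique molecular identifiers, which count captured transcripts): at least 2 UMIs of Cd209a and Flt3 together and at least 10 of H2-Ab1. They also had at most 1 UMI of Xcr1 and Clec9a, 3 of Ccr7 and Fscn1, 9 of Cd207, 5 of C1qa, C1qb and C1qc, 2 of Cd3e, and 2 of Top2a and Mki67. Kept cells had at least 1000 UMIs and at most 15% mitochondrial UMIs. Levels of these 14 gate genes are therefore a description, and they entered no test. In control skin the data go partly against the label, so the members are called gated cells.

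Skin tumor and control skin were compared, with 2 libraries each. The skin tumor libraries came from 2323 tumors, and the control skin libraries came from uninoculated C57BL/6 mice. The 2323 line was derived from a mouse skin tumor of a genetically engineered model with K14rtTA, tetOCre and p53-/- alleles, 1 further allele not being reported here (K14 is a keratinocyte promoter), and it was injected into the flank of female and male C57BL/6 mice aged 8 to 10 weeks. It is a single transplanted line, and the control animals received no injection. Live CD45+ cells were sorted from both tissues after collagenase digestion and run on the 10x Genomics droplet platform. The sorted cells came from 2 tumors and 2 control skins, and p-values measure the spread between these libraries.

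Conventional dendritic cells take up antigen in tissues, carry it to lymph nodes and present it to T cells. The type 2 subset presents mainly to CD4 T cells and is marked by Sirpa, Irf4 and, in mouse skin, by C-type lectins such as Mgl2 (CD301b) and Cd209a (DC-SIGN homolog). Flt3 is the receptor for the growth factor that maintains dendritic cells, and Kmo encodes a kynurenine pathway enzyme found in dendritic cells. Macrophages of the dermis share many of these surface genes, among them Mrc1, Cd163 and Mgl2.

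The libraries held 3499, 3862, 5176 and 2258 barcodes in control skin replicates 1 and 2 and skin tumor replicates 1 and 2, of which 3114, 3190, 4813 and 2007 were kept. They contributed 56, 79, 97 and 35 gated cells with 1300412, 1446680, 1581996 and 539179 UMIs. Depth per member was higher in control skin, with medians of 22285 and 16738 UMIs against 15926 and 13755. Between 1 and 7 barcodes were shared by each pair of libraries, and no member carried one. No doublet caller was applied. All 4 libraries had UMIs of the Y-linked Ddx3y (147 and 175 UMIs in the control skins and 103 and 50 UMIs in the skin tumors), and Xist had 1 UMI in all.

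The shares of gated cells among kept cells overlapped between the groups. They made up 1.80% and 2.48% in the control skins (exact 95% intervals 1.36 to 2.33% and 1.97 to 3.08%) and 2.02% and 1.74% in the skin tumors (1.64 to 2.45% and 1.22 to 2.42%). The group means were 2.14 ± 0.48% and 1.88 ± 0.19% (SD, n = 2 each; two-sided exact permutation p = 0.667). These intervals cover counting error only. With 2 libraries against 2, the smallest p this test can give is 0.33. Among cells with at least 10 H2-Ab1 UMIs the shares were 5.50% and 6.72% in control skin and 3.69% and 3.30% in tumor, which did not overlap (exact permutation p = 0.33). C1q-high macrophages, gated on at least 10 UMIs of C1qa, C1qb and C1qc, made up 1.54% and 4.26% of kept cells in control skin and 29.2% and 27.1% in tumor.

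Both gate genes were found in both groups, in different proportions. Flt3 stood at 39.9 and 58.4 CPM in the control skins and 144 and 118 CPM in the skin tumors (chr5:147330741-147400489, GRCm38), where CPM is UMIs per 1000000 of the gated cells' summed UMIs after TMM scaling. Cd209a stood at 968 and 974 CPM in the control skins and 497 and 509 CPM in the skin tumors (chr8:3743397-3748984). Members with Cd209a but no Flt3 UMI made up 64.3% and 65.8% of the control members against 41.2% and 37.1% of the tumor members. Flt3 UMIs were present in 20 of 56, 27 of 79, 57 of 97 and 22 of 35 members. Since depth and RNA content differ, fewer cells of a type and less RNA per cell cannot be told apart in these sums.

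To compare detection at equal depth, each cell was thinned to 5000 UMIs, which kept 53, 75, 96 and 35 members. The share of members with Flt3 was then 17 and 21.3% in the control skins and 37.5 and 40% in the skin tumors, against at most 0.251% of Cd3e+ cells (at least 3 Cd3e and under 10 H2-Ab1 UMIs), which should lack it. Flt3 is a gate gene, so its excess over Cd3e+ cells follows in part from the gate and is a description only. The share with Mgl2 was 88.7 and 85.3% in the control skins and 41.7 and 54.3% in the skin tumors, and that with Kmo was 5.66 and 20% in the control skins and 52.1 and 34.3% in the skin tumors. The Mgl2 share was thus higher in both control libraries, and the Kmo share in both tumor libraries. Sirpa, a type 2 marker, was detected in 58.5 and 54.7% in the control skins and 54.2 and 45.7% in the skin tumors, and Zbtb46, the conventional dendritic cell transcription factor, in 28.3 and 33.3% in the control skins and 49 and 51.4% in the skin tumors. Zbtb46 was also seen in 4.4%, 3.97%, 13.6% and 20.7% of Cd3e+ cells in the order of control skin replicates 1 and 2 and skin tumor replicates 1 and 2.

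Some genes usually read as macrophage markers were frequent in the control members. Of 20 such markers 9 were tested, of which 4 (Mrc1, Adgre1, Cd163 and F13a1) were lower and 1 (Fcgr1) higher in tumor. The mannose receptor gene Mrc1 was detected in 84.9 and 82.7% in the control skins and 21.9 and 31.4% in the skin tumors, and the F4/80 gene Adgre1 in 54.7 and 54.7% in the control skins and 13.5 and 5.71% in the skin tumors. The haemoglobin scavenger receptor gene Cd163 was detected in 30.2 and 34.7% in the control skins and 0 and 2.86% in the skin tumors. In Cd3e+ cells at equal depth, Mrc1, Adgre1 and Cd163 were seen in at most 7.44%, 4.13% and 1.005% in any library. Only 4 of 56 and 10 of 79 control members had at most 1 UMI of Mrc1, Adgre1 and Cd163 together, against 63 of 97 and 20 of 35 tumor members. The Fc receptor gene Fcgr1 went the other way, in 5.66 and 1.33% in the control skins and 21.9 and 11.4% in the skin tumors. The label of conventional dendritic cells is thus met less cleanly in control skin, where Cd209a, Mgl2 and Sirpa are present beside Mrc1, Adgre1 and Cd163. Over the list of 20 macrophage markers, the summed level was 1707 and 1856 CPM in control skin and 856 and 688 CPM in tumor, with Mrc1 the most abundant. C1q genes were at most 18.8 CPM by the gate and Lyve1 had 1 UMI in all. The part of a different mixture of cells in the comparisons below was not tested, beyond the values given for members with a Flt3 UMI.

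**Figure D1:**
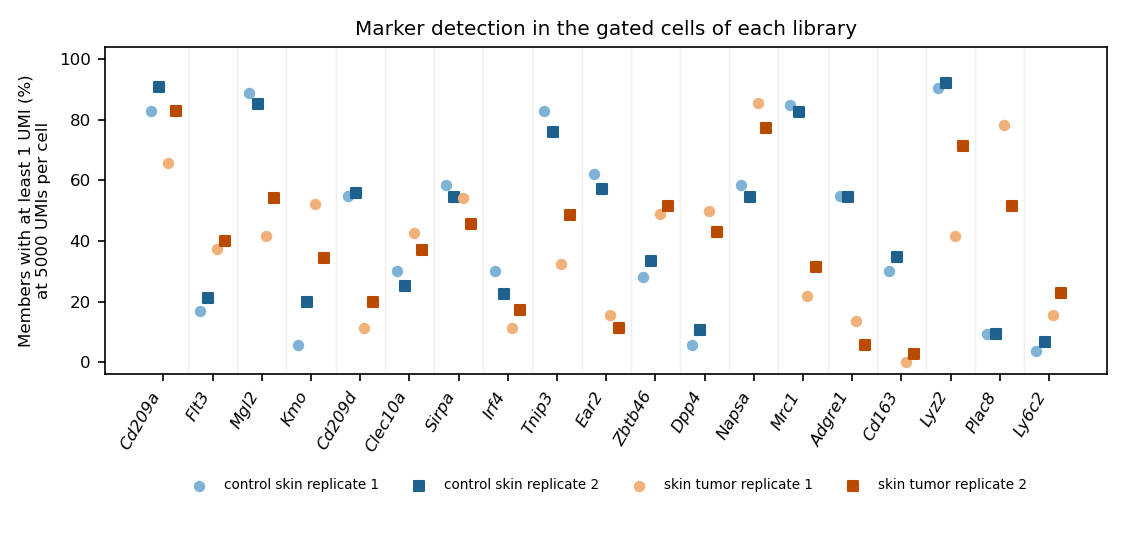
Share of gated cells with at least 1 UMI of each gene (y axis, percent, after thinning every cell to 5000 UMIs) in each library, with 1 point per library. Mrc1, Adgre1, Cd163, Mgl2, Tnip3 and Ear2 lie higher in both control skins, and Flt3, Kmo, Dpp4, Napsa and Plac8 lie higher in both skin tumors.

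To ask how the gated cells differed between tumor and control skin, the members' UMIs were added up within each library and entered edgeR's quasi-likelihood test. P-values of all 8390 genes tested were adjusted by Benjamini-Hochberg. The call threshold was an adjusted p of 0.05. It was passed by 1080 genes (12.9% of those tested), of which 412 (4.91%) rose and 668 (7.96%) fell in the skin tumors. The 4.91% and 7.96% are the shares against which the list counts below stand. The median log2 fold change over all genes was 0.04. Fewer genes passed without a control library: 168 without control skin replicate 1 and 191 without replicate 2, while 993 passed without skin tumor replicate 1 and 2153 without replicate 2. Skin tumor replicate 2 had the fewest members and UMIs. Restricted to the 126 members with a Flt3 UMI, 217 genes rose (3.71% of 5848 tested) and 301 fell (5.15%). Of the 1080 called genes, 898 could be tested in the Flt3 members, all 898 had the same sign there, and 437 passed. The Flt3 members are a part of the same cells, so this is not an independent test.

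Many interferon response genes, though not all, rose in the gated cells of the tumors. Interferons signal through JAK kinases to STAT transcription factors, which drive antiviral effectors, chemokines and antigen-processing genes. Of 39 type I effectors tested, 24 rose and none fell (median log2 fold change 1.83), and of 27 genes in the interferon gamma list 13 rose and none fell (median 1.60). Ifi207, Cd274 and Fgl2 had estimates below 0, and none of them passed. The Flt3 members had 26 of 34 and 11 of 14 higher. The summed level of the type I list was 2089 and 2548 CPM in control skin and 7151 and 6016 CPM in tumor, and Ifitm3 was its most abundant member.

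Cxcl9 (chr5:92321347-92328079), which encodes a ligand of the T cell chemokine receptor Cxcr3, had 0 and 1 UMIs in the control skins and 347 and 52 UMIs in the skin tumors. Its UMI ratio of tumor to control was 517 (exact 95% interval 92.2 to 20461, counting error only; adjusted p = 0.00157), and the groups did not overlap. At equal depth the share of members with Cxcl9 was 0 and 0% in the control skins and 25 and 22.9% in the skin tumors, against 0.251%, 0.512%, 4.20% and 5.79% of Cd3e+ cells in the same order. Cxcl10, which signals through the same receptor, stood at 0.868 and 35.7 CPM in the control skins and 177 and 119.5 CPM in the skin tumors (log2 fold change 2.99 ± 0.78 (SE), adjusted p = 0.0425). Control skin replicate 2 carried almost all control Cxcl10, and both tumor libraries were above it.

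Ifitm3, an antiviral membrane protein, stood at 271 and 344 CPM in the control skins and 1995 and 2090.0 CPM in the skin tumors (log2 fold change 2.73 ± 0.25 (SE), adjusted p = 0.00161), with both tumor libraries near one another. Ifit2, an antiviral RNA-binding effector, stood at 0.868 and 28.1 CPM in the control skins and 190.2 and 102 CPM in the skin tumors (log2 fold change 3.31 ± 0.76 (SE), adjusted p = 0.0286). Ifit1, its neighbour in the same gene family, stood at 0 and 6.83 CPM in the control skins and 106 and 10.2 CPM in the skin tumors (log2 fold change 4.12 ± 1.11 (SE), adjusted p = 0.0461), where skin tumor replicate 1 was far above the other 3 libraries. Ifi44 had 0 and 3 UMIs in the control skins and 27 and 10 UMIs in the skin tumors, a UMI ratio of 16 (5.06 to 81.0; adjusted p = 0.0247). Serpina3g, a protease inhibitor of the gamma list, stood at 0.868 and 2.28 CPM in the control skins and 64.9 and 32.4 CPM in the skin tumors (log2 fold change 4.89 ± 0.60 (SE), adjusted p = 0.00437). Ly6a (Sca-1) stood at 16.5 and 15.9 CPM in the control skins and 355 and 85.4 CPM in the skin tumors (log2 fold change 3.81 ± 0.63 (SE), adjusted p = 0.0107), and in both cases the tumor libraries lay above both controls. Among the list members that did not pass, Isg15 had a log2 fold change of 0.78 (adjusted p = 0.0517; 2.05 and 0.0416 in the Flt3 members, where it passed) and Stat2 of 0.33 (0.392). Cd274 (PD-L1) was at 495 and 361 CPM in the control skins and 231 and 302 CPM in the skin tumors and had a negative estimate (log2 fold change -0.69 ± 0.26 (SE), adjusted p = 0.111).

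Promoters of these genes were searched for the core of the interferon-stimulated response element (ISRE), which is GAAA and GAAA separated by 2 bases, and the gamma activated site (GAS), TTCNNNGAA, on both strands, from 250 bases before to 50 after the start (RefSeq, GRCm38.p6). The ISRE letters were in 3.44% of all 32851 promoters and the GAS letters in 8.30%. They were in 8 and 6 of 19 called type I genes with a promoter in the table, and in 9 and 1 of 11 that were not called. Of 10 called gamma list genes 6 held each motif, against 6 and 3 of 8 not called. A list gene was counted if any of its promoters held the letters, while the shares of all promoters count each promoter singly. The list counts and those shares thus have different units. A match is a description and not a shown binding site. The 5 stretches that follow show where the letters lie in named interferon and antigen-processing genes that rose. They are examples whose match lies wholly upstream of a RefSeq start with 20 bases on either side. Each gene has 1 stretch shown, in the gene's direction, with the letters of 1 match in capitals (on the opposite strand for Ifit1). The lower-case letters of the Ifit1 stretch hold another ISRE match, 85 to 76 bases before the start. Ifi205 has another ISRE match after its start, which is not shown. The Psmb8 stretch lies inside that gene's GENCODE coordinates (chr17:34197721-34201454).
Cxcl10, ISRE, chr5:92349073-92349122, minus strand: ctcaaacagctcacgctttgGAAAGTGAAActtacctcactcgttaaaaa
Ifit1, ISRE, chr19:34640765-34640814, plus strand: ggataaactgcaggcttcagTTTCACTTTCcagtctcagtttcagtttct
Ifi205, ISRE, chr1:174031860-174031909, minus strand: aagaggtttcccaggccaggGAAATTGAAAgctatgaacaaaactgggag
Serpina3g, GAS, chr12:104236094-104236142, plus strand: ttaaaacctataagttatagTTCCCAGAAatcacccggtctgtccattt
Psmb8, GAS, chr17:34198078-34198126, plus strand: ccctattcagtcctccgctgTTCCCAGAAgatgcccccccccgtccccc

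**Figure D2:**
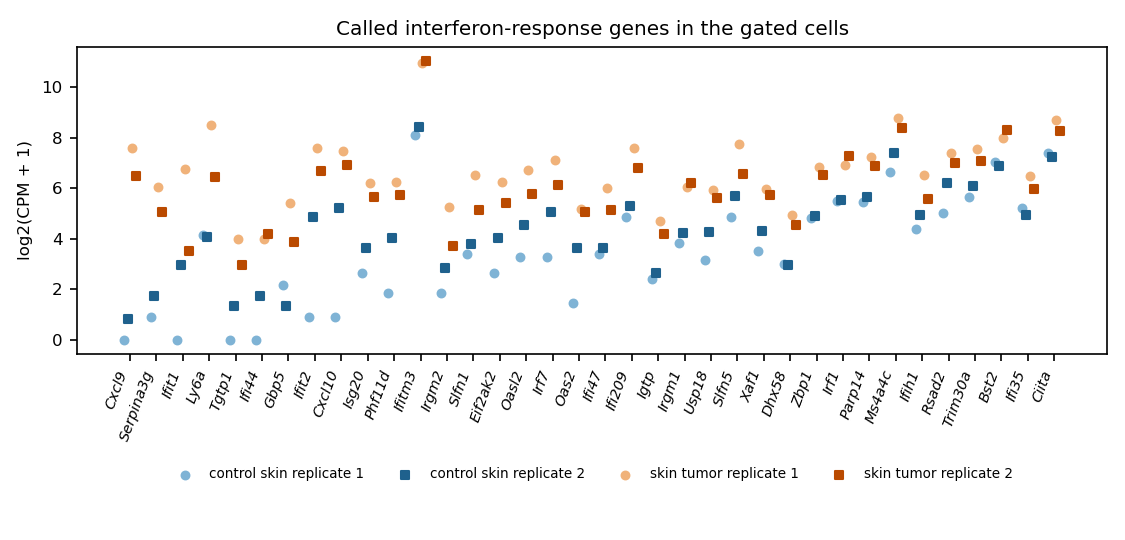
Level of called genes of both interferon lists in the gated cells (y axis, log2 of CPM plus 1), with 1 point per library and genes ordered by fold change. Both tumor libraries lie above both control libraries for each gene plotted, and the gap to control is widest for Cxcl9.

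The markers of type 2 dendritic cells moved in both directions. Mgl2 (chr11:70130329-70137550) stood at 922 and 998 CPM in the control skins and 262 and 468 CPM in the skin tumors (log2 fold change -1.41 ± 0.30 (SE), adjusted p = 0.0225), lower in both tumors. The estimate in Flt3 members was -1.31 (adjusted p = 0.0348). Kmo (chr1:175620381-175662116) stood at 20.8 and 46.3 CPM in the control skins and 192 and 118 CPM in the skin tumors (log2 fold change 2.21 ± 0.40 (SE), adjusted p = 0.0142), higher in both tumors. In the Flt3 members its log2 fold change was 1.59 (adjusted p = 0.0552), which did not pass. Of the 10 tested genes on the type 2 list 3 rose (Kmo, Clec10a and Ltb) and 4 fell (Mgl2, Cd209d, Tnip3 and Ear2), with a median log2 fold change of -0.53. Neither Sirpa (234 and 203 against 182 and 183 CPM, log2 fold change -0.26 ± 0.21 (SE), adjusted p = 0.442) nor Irf4 (97.2 and 95.6 against 62.1 and 46.1 CPM, log2 fold change -0.80 ± 0.25 (SE), adjusted p = 0.0733) passed, and Irf4 passed in the Flt3 members (log2 fold change -1.48, adjusted p = 0.0412).

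Of the pan-dendritic list 2 of 10 genes rose and none fell. Dpp4 (CD26), a peptidase on dendritic cells, stood at 19.1 and 20.5 CPM in the control skins and 191 and 95.6 CPM in the skin tumors (log2 fold change 2.88 ± 0.37 (SE), adjusted p = 0.00515), about evenly low in both controls. Napsa, an aspartic protease gene expressed by dendritic cells, stood at 208 and 218 CPM in the control skins and 532 and 432 CPM in the skin tumors (log2 fold change 1.18 ± 0.22 (SE), adjusted p = 0.0162). Zbtb46 did not pass (115 and 115 against 179 and 119.5 CPM, log2 fold change 0.40 ± 0.25 (SE), adjusted p = 0.328). Plac8, which also marks monocytes, stood at 54.7 and 80.4 CPM in the control skins and 1192 and 702 CPM in the skin tumors (log2 fold change 3.81 ± 0.35 (SE), adjusted p = 0.00161). The groups were well apart. Plac8 was also detected in more tumor than control Cd3e+ cells at equal depth (2.26%, 2.82%, 41.5% and 26.4% in the order of libraries above). Of the 11 monocyte markers tested 4 rose, among them Ly6c2, Plac8 and Ms4a6c, and none fell, with summed levels of 1223 and 1165 CPM against 2289 and 2216 CPM. Only 1 of 8 monocyte markers tested in the Flt3 members rose, which was Plac8 (adjusted p = 0.00503), and none fell.

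C-type lectins bind sugars on microbes and self glycoproteins. Of 20 tested, 8 fell, 2 rose and 10 did not pass (median -0.97). Mrc1 stood at 597 and 743 CPM in the control skins and 104 and 150.3 CPM in the skin tumors (log2 fold change -2.42 ± 0.27 (SE), adjusted p = 0.00339). Its level was lower in both tumors also among members with a Flt3 UMI, at 407 and 641 CPM in the control skins and 75.4 and 74.8 CPM in the skin tumors. Cd209d, a paralog of Cd209a whose reads could be shared with near-identical relatives, stood at 448 and 441 CPM in the control skins and 53.2 and 135 CPM in the skin tumors (log2 fold change -2.31 ± 0.39 (SE), adjusted p = 0.0123). Cd209e, another paralog, stood at 47.7 and 99.4 CPM in the control skins and 8.87 and 10.2 CPM in the skin tumors (log2 fold change -2.97 ± 0.46 (SE), adjusted p = 0.0084). Clec4b1 (DCAR) stood at 287 and 185 CPM in the control skins and 37.7 and 18.8 CPM in the skin tumors (log2 fold change -2.95 ± 0.36 (SE), adjusted p = 0.00437). Each of these was lower in both tumors. The lectins that rose were Clec4n (Dectin-2), at 23.4 and 45.5 CPM in the control skins and 101 and 160.5 CPM in the skin tumors (log2 fold change 1.88 ± 0.37 (SE), adjusted p = 0.0182), and Clec10a (CD301a), at 82.4 and 100.1 CPM in the control skins and 212 and 159 CPM in the skin tumors (log2 fold change 1.03 ± 0.25 (SE), adjusted p = 0.0323). No lectin of 17 tested rose in the Flt3 members, where Clec4n had a log2 fold change of 1.57 (adjusted p = 0.0593). Clec10a did not pass there (log2 fold change 1.03, adjusted p = 0.0765) or without the members that had a Cd3e UMI (0.86, adjusted p = 0.0714).

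Genes of antigen presentation did not move as 1 block. The MHC class II transactivator gene Ciita stood at 167 and 151 CPM in the control skins and 417 and 304 CPM in the skin tumors (log2 fold change 1.19 ± 0.24 (SE), adjusted p = 0.0194) and was higher in both tumors. H2-DMb2, a subunit of the peptide-exchange factor, stood at 47.7 and 70.6 CPM in the control skins and 225 and 147 CPM in the skin tumors (log2 fold change 1.67 ± 0.30 (SE), adjusted p = 0.0146), and March1, a ligase that removes class II from the surface, at 32.1 and 45.5 CPM in the control skins and 116 and 88.8 CPM in the skin tumors (log2 fold change 1.41 ± 0.29 (SE), adjusted p = 0.0194). Cd74, the invariant chain, was at 19506 and 17469 CPM in the control skins and 10662 and 8563 CPM in the skin tumors and did not pass (log2 fold change -0.94 ± 0.30 (SE), adjusted p = 0.0711). H2-Aa (9678 and 8625 against 5400.2 and 4755 CPM, log2 fold change -0.85 ± 0.27 (SE), adjusted p = 0.0724) and H2-Eb1 (9793 and 8368 against 5092 and 4554 CPM, log2 fold change -0.91 ± 0.27 (SE), adjusted p = 0.0604) also did not pass, with lower values in both tumors. Lgmn, a lysosomal protease, fell (335 and 333 against 162 and 164 CPM, log2 fold change -1.03 ± 0.21 (SE), adjusted p = 0.0194). In all, 3 of 13 class II genes rose and 1 fell, against 2 and 0 of 13 in the Flt3 members. There March1 (log2 fold change 1.51, adjusted p = 0.0648) and Lgmn (-0.77, 0.122) did not pass.

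Among 23 class I genes 7 rose and none fell. The immunoproteasome subunits Psmb9, at 65.9 and 59.2 CPM in the control skins and 216 and 159 CPM in the skin tumors (log2 fold change 1.60 ± 0.25 (SE), adjusted p = 0.00871), and Psmb8, at 239 and 191 CPM in the control skins and 582 and 417 CPM in the skin tumors (log2 fold change 1.22 ± 0.26 (SE), adjusted p = 0.0211), were higher in both tumors. Psmb10, Psme1, Psme2 and the peptide transporter Tap1 also rose, with log2 fold changes of 1.20, 1.05, 1.03 and 0.97. The non-classical H2-T24, which lies among near-identical genes, stood at 2.60 and 1.52 CPM in the control skins and 17.2 and 8.54 CPM in the skin tumors (log2 fold change 2.72 ± 0.64 (SE), adjusted p = 0.0313). Of 21 class I genes tested in the Flt3 members 4 rose.

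Of 16 costimulators and checkpoint ligands Cd86 alone passed, and it fell, a share near the 7.96% of all genes that fell. It stood at 886 and 951 CPM in the control skins and 322 and 531 CPM in the skin tumors (log2 fold change -1.12 ± 0.28 (SE), adjusted p = 0.0378), and in the Flt3 members the estimate was about as large but did not pass (log2 fold change -1.09, adjusted p = 0.0753). Cd83 (-1.01, adjusted p = 0.0454) and Pvr (-1.64, adjusted p = 0.0412) fell in the Flt3 members. Cd40 (39 and 55.4 against 62.1 and 61.5 CPM, adjusted p = 0.391) and Cd80 (124 and 173 against 134 and 236 CPM, adjusted p = 0.581) did not pass.

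Chemokines changed in both directions, 4 higher and 3 lower of 16 tested. Besides Cxcl9 and Cxcl10, Ccl5, which attracts T cells, stood at 3.47 and 4.55 CPM in the control skins and 47.1 and 118 CPM in the skin tumors (log2 fold change 4.25 ± 0.58 (SE), adjusted p = 0.00607). It was higher in tumor also in Cd3e+ cells, at 308 and 99.2 CPM in the control skins and 1639 and 1034 CPM in the skin tumors, and in mature dendritic cells, at 119 and 61.6 CPM in the control skins and 1207 and 755 CPM in the skin tumors, and the part of their RNA in the gated cells' Ccl5 was not tested. Ccl4, a chemokine of the same CC family, stood at 145 and 236 CPM in the control skins and 666 and 855 CPM in the skin tumors (log2 fold change 1.99 ± 0.29 (SE), adjusted p = 0.00766). Both were higher in both tumors. Cxcl2, which attracts neutrophils, stood at 1078 and 966 CPM in the control skins and 107 and 207 CPM in the skin tumors (log2 fold change -2.74 ± 0.33 (SE), adjusted p = 0.00435), and in the Flt3 members the call was lost (log2 fold change -1.50, adjusted p = 0.308). Ccl9 stood at 723 and 502 CPM in the control skins and 131 and 242 CPM in the skin tumors (log2 fold change -1.74 ± 0.34 (SE), adjusted p = 0.0171). In the Flt3 members Ccl9 did not pass either, though its estimate was about as large (log2 fold change -1.54, adjusted p = 0.0539). Ccl2, which attracts monocytes, stood at 47.7 and 47.8 CPM in the control skins and 17.2 and 25.6 CPM in the skin tumors (log2 fold change -1.23 ± 0.33 (SE), adjusted p = 0.0461). These 3 were lower in both tumors. Ccl17, a Ccr4 ligand made by dendritic cells, was at 60.7 and 5.31 CPM in the control skins and 92.6 and 76.8 CPM in the skin tumors and did not pass (log2 fold change 1.40 ± 0.73 (SE), adjusted p = 0.235). Control skin replicate 1 was near the tumor values and replicate 2 far below them.

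Among 16 cytokines tested 2 rose and 2 fell. Ltb, the membrane lymphotoxin subunit, stood at 6.94 and 1.52 CPM in the control skins and 55.4 and 25.6 CPM in the skin tumors (log2 fold change 3.35 ± 0.63 (SE), adjusted p = 0.0161). Cd3e+ cells had more Ltb in each library, at 109 and 68.7 CPM in the control skins and 218 and 282 CPM in the skin tumors. Ltb passed without the members that had a Cd3e UMI (log2 fold change 4.68, adjusted p = 0.00852), and the part of T cell RNA was not tested. Csf1, the macrophage growth factor, had 0 and 0 UMIs in the control skins and 20 and 16 UMIs in the skin tumors, at least 15.5-fold higher in tumor against a floor of 3 UMIs over both controls (adjusted p = 0.0159). Il15, which sustains natural killer cells and memory T cells, stood at 74.6 and 51.6 CPM in the control skins and 23.3 and 8.54 CPM in the skin tumors (log2 fold change -1.80 ± 0.42 (SE), adjusted p = 0.0305), lower in both tumors. It was too low to test in the Flt3 members, where the groups overlapped. Its level there was 18.4 and 14.9 CPM in the control skins and 25.4 and 5.54 CPM in the skin tumors. Members without a Flt3 UMI had 97 and 73.2 CPM of Il15 in the control skins and 22.6 and 14.4 CPM in the skin tumors. Tgfb1, a regulatory cytokine, stood at 262 and 275 CPM in the control skins and 139.7 and 114 CPM in the skin tumors (log2 fold change -1.07 ± 0.22 (SE), adjusted p = 0.0205). Its estimate was about as large in the Flt3 members but did not pass (log2 fold change -1.17, adjusted p = 0.0577). Il1b was at 979.6 and 1056 CPM in the control skins and 718 and 1060.3 CPM in the skin tumors, overlapped between groups and did not pass (log2 fold change -0.20 ± 0.26 (SE), adjusted p = 0.643). Il12b had 1 and 0 UMIs in the control skins and 7 and 0 UMIs in the skin tumors and was too low to test.

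Receptors for chemokines and egress signals were split, 4 higher and 2 lower of 15. Cx3cr1, the fractalkine receptor, stood at 14.8 and 19.7 CPM in the control skins and 61.5 and 42.7 CPM in the skin tumors (log2 fold change 1.62 ± 0.34 (SE), adjusted p = 0.0217), and Ccr6 at 0.868 and 3.79 CPM in the control skins and 18.3 and 8.54 CPM in the skin tumors (log2 fold change 2.55 ± 0.70 (SE), adjusted p = 0.0496). Both were higher in both tumors. In the Flt3 members Cx3cr1 did not pass (log2 fold change 1.30, adjusted p = 0.0941), and Ccr6 was too low to test. Cxcr6 had 63 and 29 UMIs in the control skins and 0 and 3 UMIs in the skin tumors. Its UMI ratio of control to tumor was 23.7 (7.85 to 117; adjusted p = 0.0222). Cxcr6 in Cd3e+ cells was at 567 and 427 CPM in the control skins and 311 and 363 CPM in the skin tumors, above the gated cells in each library, and it was too low to test without the members that had a Cd3e UMI.

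Of 33 dendritic cell transcription factors tested 3 rose and 6 fell. Irf8, which specifies type 1 and plasmacytoid dendritic cells, stood at 76.4 and 34.9 CPM in the control skins and 131 and 167 CPM in the skin tumors (log2 fold change 1.42 ± 0.36 (SE), adjusted p = 0.04). Tbx21 (T-bet) stood at 1.74 and 5.31 CPM in the control skins and 59.3 and 37.6 CPM in the skin tumors (log2 fold change 3.75 ± 0.51 (SE), adjusted p = 0.00611). In the Flt3 members it did not pass (log2 fold change 1.93, adjusted p = 0.0662). Tbx21 in Cd3e+ cells was at 89.4 and 40.9 CPM in the control skins and 124 and 122 CPM in the skin tumors. Bcl11a, needed for dendritic progenitors, stood at 45.1 and 42.5 CPM in the control skins and 198 and 111 CPM in the skin tumors (log2 fold change 1.85 ± 0.31 (SE), adjusted p = 0.0122). These 3 were higher in both tumors. Etv3 stood at 771 and 734 CPM in the control skins and 157 and 189.5 CPM in the skin tumors (log2 fold change -2.12 ± 0.23 (SE), adjusted p = 0.00305). Prdm1 (Blimp-1) stood at 66.8 and 94.1 CPM in the control skins and 14.4 and 18.8 CPM in the skin tumors (log2 fold change -2.33 ± 0.33 (SE), adjusted p = 0.00685), and Ikzf3 (Aiolos) at 68.5 and 30.3 CPM in the control skins and 3.88 and 0 CPM in the skin tumors (log2 fold change -4.09 ± 0.70 (SE), adjusted p = 0.0126). Prdm1 did not pass in the Flt3 members, where its estimate was no smaller (log2 fold change -2.78, adjusted p = 0.0512). Ikzf3 in Cd3e+ cells was at 287 and 181 CPM in the control skins and 248 and 261 CPM in the skin tumors. Tbx21 and Ikzf3 were thus higher in Cd3e+ cells than in the gated cells of each library. Both passed without the members that had a Cd3e UMI (adjusted p = 0.0141 and 0.0148). The part of T cell RNA in them was not tested. The other 3 that fell were Zeb2, Rbpj and Ahr, with log2 fold changes of -1.50, -0.97 and -1.22.

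Of 26 genes of scavenging, lysosomes and lipid handling tested, 10 fell, none rose and 16 did not pass (median -1.02). Lpl (lipoprotein lipase) stood at 318 and 156 CPM in the control skins and 6.10 and 6.83 CPM in the skin tumors (log2 fold change -5.20 ± 0.47 (SE), adjusted p = 0.00157). Abca1, a cholesterol exporter, stood at 187 and 189 CPM in the control skins and 20 and 49.5 CPM in the skin tumors (log2 fold change -2.59 ± 0.38 (SE), adjusted p = 0.00782). Cd36, a fatty acid receptor, stood at 305 and 58.4 CPM in the control skins and 22.2 and 3.42 CPM in the skin tumors (log2 fold change -3.51 ± 0.83 (SE), adjusted p = 0.0308), with the highest value in control skin replicate 1. Its estimate was smaller and did not pass in the Flt3 members (log2 fold change -1.97, adjusted p = 0.153). Lgals3 (galectin-3) stood at 3991 and 3296 CPM in the control skins and 1039.6 and 1663 CPM in the skin tumors (log2 fold change -1.43 ± 0.30 (SE), adjusted p = 0.0213). Each of the 4 was lower in both tumors. Of 22 of these genes tested in the Flt3 members 3 fell and 2 rose.

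Most heat shock genes of the list fixed for dissociation rose. The list of immediate early and dissociation genes, which respond within minutes to handling and digestion, had 10 of 30 genes higher and 2 lower, and 8 of the 10 were among its 9 heat shock genes. The ninth, Hspa8, the most abundant gene of the list, did not pass (2505 and 1870.0 against 2411 and 4474 CPM, log2 fold change 0.65 ± 0.34 (SE), adjusted p = 0.232). Hspa1a (Hsp70) stood at 470.3 and 579 CPM in the control skins and 2885 and 4025 CPM in the skin tumors (log2 fold change 2.72 ± 0.29 (SE), adjusted p = 0.00299). Hspb1 (Hsp27) stood at 98 and 28.8 CPM in the control skins and 657 and 1236 CPM in the skin tumors (log2 fold change 3.90 ± 0.55 (SE), adjusted p = 0.0068), and Dnajb1, an Hsp40 co-chaperone, at 74.6 and 98.6 CPM in the control skins and 442 and 678 CPM in the skin tumors (log2 fold change 2.68 ± 0.29 (SE), adjusted p = 0.00305). Each was higher in both tumors, most so in skin tumor replicate 2. Among immediate early factors Jun rose (145 and 227 against 813 and 1036 CPM, log2 fold change 2.31 ± 0.29 (SE), adjusted p = 0.00456), Egr2 (36.4 and 34.1 against 14.4 and 15.4 CPM, log2 fold change -1.25 ± 0.34 (SE), adjusted p = 0.0473) and Zfp36 (708 and 910.4 against 357 and 466 CPM, log2 fold change -0.98 ± 0.25 (SE), adjusted p = 0.0398) fell, and Fos did not pass (303 and 498 against 411 and 586 CPM, adjusted p = 0.529). Hspa1a was higher in tumor also in Cd3e+ cells (569.9 and 264 CPM in the control skins and 1472 and 1720.4 CPM in the skin tumors) and in mature dendritic cells (302 and 135 CPM in the control skins and 1653 and 2206 CPM in the skin tumors). In C1q-high macrophages it was at 1941 and 1095 CPM in the control skins and 2228 and 2183 CPM in the skin tumors. The difference of the tumor effects in these macrophages and the gated cells is given below. The part of digestion time or tissue handling in these values was not tested.

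Of 4 tested kynurenine and tryptophan enzymes 3 rose, Kmo, Kynu (40.8 and 25 against 114 and 76.8 CPM, log2 fold change 1.57 ± 0.33 (SE), adjusted p = 0.0216) and Il4i1 (17.4 and 7.59 against 47.7 and 47.8 CPM, log2 fold change 1.95 ± 0.41 (SE), adjusted p = 0.0222), while Ido1 had 2 UMIs in skin tumor replicate 1 and none elsewhere. None of the 3 passed in the Flt3 members. In the JAK and STAT list 3 of 29 rose and 3 fell, where 4.91% of all genes rose and 7.96% fell. The share that fell was thus near that of all genes. Those that rose included Stat4 (50.3 and 72.1 against 142 and 164 CPM, log2 fold change 1.31 ± 0.26 (SE), adjusted p = 0.0188) and Ptpn6 (60.7 and 67.5 against 153 and 142 CPM, log2 fold change 1.20 ± 0.23 (SE), adjusted p = 0.0161). On the same list 3 receptor chains fell: Il6st (201 and 181 against 87.6 and 59.8 CPM, log2 fold change -1.34 ± 0.26 (SE), adjusted p = 0.0165), Csf2ra (156 and 196 against 87.6 and 85.4 CPM, log2 fold change -1.02 ± 0.23 (SE), adjusted p = 0.0271) and Csf2rb (700.2 and 651 against 311 and 372 CPM, log2 fold change -0.99 ± 0.22 (SE), adjusted p = 0.0266). In the Flt3 members 1 of 27 genes of the list rose and none fell, and these 5 did not pass there. Their log2 fold changes there were 0.39 for Stat4 (adjusted p = 0.567), 0.96 for Ptpn6 (0.0736), -0.91 for Il6st (0.12), -0.80 for Csf2ra (0.182) and -1.05 for Csf2rb (0.0525), so that of Stat4 was the one that shrank most. Cd3e+ cells had more Stat4 in each library, at 201 and 125 CPM in the control skins and 515 and 690 CPM in the skin tumors. Stat4 passed without the members that had a Cd3e UMI (log2 fold change 1.67, adjusted p = 0.0112), and the part of T cell RNA was not tested. Stat3 did not pass (456 and 463 against 274 and 398 CPM, log2 fold change -0.46 ± 0.25 (SE), adjusted p = 0.245), nor did Jak2 (388 and 455 against 356 and 391 CPM, adjusted p = 0.629).

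On the list of type 2 cytokine responses 1 of 18 rose (Clec10a) and 3 fell, Mgl2, Mrc1 and Il7r. Of all genes 4.91% rose and 7.96% fell, so the share that rose was near that of all genes. Il7r, shared by the receptors for IL-7 and TSLP, stood at 469 and 384 CPM in the control skins and 84.3 and 97.3 CPM in the skin tumors (log2 fold change -2.24 ± 0.24 (SE), adjusted p = 0.00305). Of 20 pattern recognition genes Tmem173 (STING) rose (17.4 and 24.3 against 63.8 and 49.5 CPM, log2 fold change 1.46 ± 0.32 (SE), adjusted p = 0.0253), and the adaptor Ticam1 (41.6 and 41.7 against 13.3 and 13.7 CPM, log2 fold change -1.63 ± 0.33 (SE), adjusted p = 0.0196) fell with Cd36, shares near those of all genes. Neither Tmem173 nor Ticam1 nor Cd36 passed in the Flt3 members (log2 fold changes 1.10, -2.15 and -1.97, adjusted p = 0.11, 0.0851 and 0.153). In the glycolysis and hypoxia list Mif rose (187 and 164 against 422 and 295 CPM, log2 fold change 1.04 ± 0.25 (SE), adjusted p = 0.032), and Ndrg1 (297 and 360.4 against 75.4 and 87.1 CPM, log2 fold change -2.03 ± 0.24 (SE), adjusted p = 0.00361) and Pfkfb4 (76.4 and 107 against 42.7 and 37.6 CPM, log2 fold change -1.17 ± 0.28 (SE), adjusted p = 0.0319) fell, of 27 tested, shares near the 4.91% and 7.96% of all genes. Neither Mif nor Pfkfb4 passed in the Flt3 members (log2 fold changes 0.80 and -0.74, adjusted p = 0.186 and 0.213). Among 24 integrins and adhesion genes Jaml rose (27.8 and 59.9 against 158 and 106 CPM, log2 fold change 1.60 ± 0.38 (SE), adjusted p = 0.0305), a share near the 4.91% of all genes. Itgb2, Itgav, Cd81 and Cd44 fell, where 7.96% of all genes did. Cd81, a tetraspanin, stood at 158 and 133 CPM in the control skins and 15 and 13.7 CPM in the skin tumors (log2 fold change -3.31 ± 0.28 (SE), adjusted p = 0.00157), and Cd44, the hyaluronan receptor, at 1709 and 1916 CPM in the control skins and 335 and 749.6 CPM in the skin tumors (log2 fold change -1.75 ± 0.37 (SE), adjusted p = 0.0216).

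**Figure D3:**
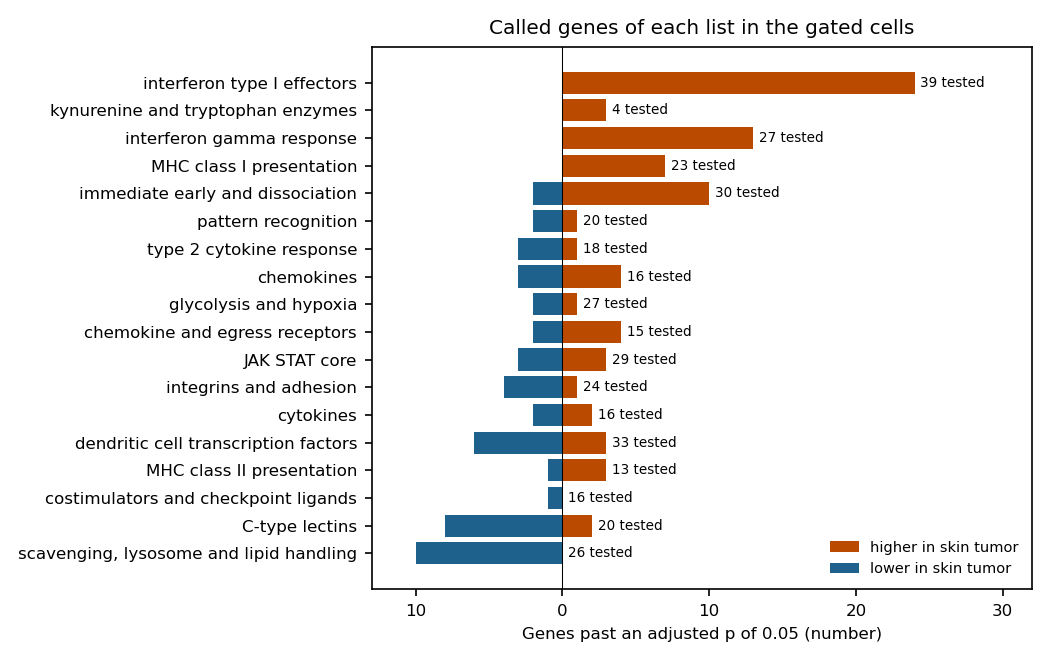
Number of genes of each list that passed an adjusted p of 0.05 in the gated cells (x axis; right, higher in skin tumor; left, lower), with the number tested beside each bar and lists ordered by median fold change. The type I interferon list has 24 of 39 genes higher, and the scavenging, lysosome and lipid list has 10 of 26 lower.

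The named genes with the largest rise included further interferon-inducible membrane proteins. Ifitm1 stood at 6.07 and 15.9 CPM in the control skins and 575 and 333 CPM in the skin tumors (log2 fold change 5.34 ± 0.46 (SE), adjusted p = 0.00157), and Ifitm6 at 0 and 6.83 CPM in the control skins and 134 and 99 CPM in the skin tumors (log2 fold change 5.00 ± 0.65 (SE), adjusted p = 0.00518). Ifi205, of the same response, stood at 6.94 and 12.9 CPM in the control skins and 211 and 176 CPM in the skin tumors (log2 fold change 4.26 ± 0.33 (SE), adjusted p = 0.00143). All 3 passed in the Flt3 members (adjusted p = 0.00212, 0.00357 and 0.000807). Ffar2, a receptor for short-chain fatty acids, stood at 4.34 and 2.28 CPM in the control skins and 101 and 29 CPM in the skin tumors (log2 fold change 4.38 ± 0.69 (SE), adjusted p = 0.00898). Hrh2, a histamine receptor, had 0 and 2 UMIs in the control skins and 62 and 8 UMIs in the skin tumors, a UMI ratio of 45.3 (12.1 to 382; adjusted p = 0.0138). Rab30 had 2 and 1 UMIs in the control skins and 54 and 13 UMIs in the skin tumors, a ratio of 28.9 (9.48 to 144; adjusted p = 0.00611). Kctd19 had 1 and 0 UMIs in the control skins and 24 and 24 UMIs in the skin tumors, a ratio of 62.2 (10.6 to 2506; adjusted p = 0.016).

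Mmp12 (macrophage elastase) stood at 2256 and 1648 CPM in the control skins and 42.7 and 20.5 CPM in the skin tumors (log2 fold change -5.84 ± 0.39 (SE), adjusted p = 0.0013). It was far lower in both tumors, also among members with a Flt3 UMI (1045 and 1013 CPM in the control skins and 38.6 and 13.8 CPM in the skin tumors). Cd163 had 196 and 260 UMIs in the control skins and 1 and 2 UMIs in the skin tumors, a UMI ratio of control to tumor of 117 (39.9 to 571; adjusted p = 0.0013). Il1r1, the interleukin-1 receptor, stood at 196 and 196 CPM in the control skins and 3.33 and 0 CPM in the skin tumors (log2 fold change -6.27 ± 0.47 (SE), adjusted p = 0.0013). Fcrls stood at 279 and 164 CPM in the control skins and 4.44 and 3.42 CPM in the skin tumors (log2 fold change -5.70 ± 0.43 (SE), adjusted p = 0.0013), and Slc27a3, a fatty acid transport family gene, at 70.3 and 72.1 CPM in the control skins and 2.22 and 0 CPM in the skin tumors (log2 fold change -5.36 ± 0.53 (SE), adjusted p = 0.00222). Trat1, a T cell receptor associated protein, had 76 and 63 UMIs in the control skins and 1 and 0 UMIs in the skin tumors, a ratio of 107 (18.9 to 4269; adjusted p = 0.00161), and Pcdh7 had 33 and 234 UMIs in the control skins and 1 and 2 UMIs in the skin tumors, a ratio of 68.7 (23.3 to 335; adjusted p = 0.016). No UMI was found in either tumor for Kcnma1 (39 and 57 UMIs in the control skins and 0 and 0 UMIs in the skin tumors), Hlf (45 and 13 UMIs in the control skins and 0 and 0 UMIs in the skin tumors) or Ptpn13 (33 and 20 UMIs in the control skins and 0 and 0 UMIs in the skin tumors). Against a floor of 3 UMIs over both tumors these were at least 24.7-fold, 14.9-fold and 13.6-fold lower (adjusted p = 0.00353, 0.0204 and 0.00933). Trat1, Pcdh7, Kcnma1, Hlf and Ptpn13 were higher in control Cd3e+ cells than in control gated cells, and lower in tumor Cd3e+ cells too. Trat1 in Cd3e+ cells was at 1235 and 1076 CPM in the control skins and 61.5 and 183 CPM in the skin tumors. Kcnma1 there was at 702 and 945 CPM in the control skins and 1.91 and 103 CPM in the skin tumors, and Pcdh7 at 195 and 207 CPM in the control skins and 1.5 and 45.1 CPM in the skin tumors. Ptpn13 in Cd3e+ cells was at 151 and 139 CPM in the control skins and 47.4 and 83.9 CPM in the skin tumors, and Hlf at 67.5 and 57.5 CPM in the control skins and 22.5 and 33.7 CPM in the skin tumors. Without the 25 members that had a Cd3e UMI, Trat1 and Pcdh7 passed (adjusted p = 0.0092 and 0.026), and Kcnma1, Hlf and Ptpn13 were too low to test. The part of T cell RNA in Trat1, Pcdh7, Kcnma1, Hlf and Ptpn13 was not tested. Members with no Cd3e UMI could still hold such RNA, which leaving out the others cannot remove. The log2 fold change of Trat1 went from -6.78 to -5.17 without the members that had a Cd3e UMI.

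The most abundant called genes included 4 heat shock genes that rose. Hsp90aa1 (1293 and 911 against 2824 and 5867 CPM, log2 fold change 1.98 ± 0.38 (SE), adjusted p = 0.0173), Hspa1b (640.4 and 685 against 2202 and 3251 CPM, log2 fold change 2.04 ± 0.28 (SE), adjusted p = 0.00606) and Dnaja1 (489 and 319 against 984 and 1771 CPM, log2 fold change 1.76 ± 0.35 (SE), adjusted p = 0.0177) rose, as did Hspa1a and Ifitm3. Lyz2 (lysozyme) stood at 5428 and 4962 CPM in the control skins and 895 and 1409 CPM in the skin tumors (log2 fold change -2.18 ± 0.30 (SE), adjusted p = 0.00621), and Vim (vimentin) at 3933 and 4185 CPM in the control skins and 1093 and 1907 CPM in the skin tumors (log2 fold change -1.44 ± 0.31 (SE), adjusted p = 0.024). Crip1 (3222 and 3133 against 1082 and 1499 CPM, log2 fold change -1.30 ± 0.26 (SE), adjusted p = 0.0194), Lgals3 and AY036118 (6840.0 and 4599 against 2298 and 1935 CPM, log2 fold change -1.43 ± 0.29 (SE), adjusted p = 0.0199) also fell. In the Flt3 members Crip1 did not pass (log2 fold change -0.99, adjusted p = 0.0721).

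**Figure D4:**
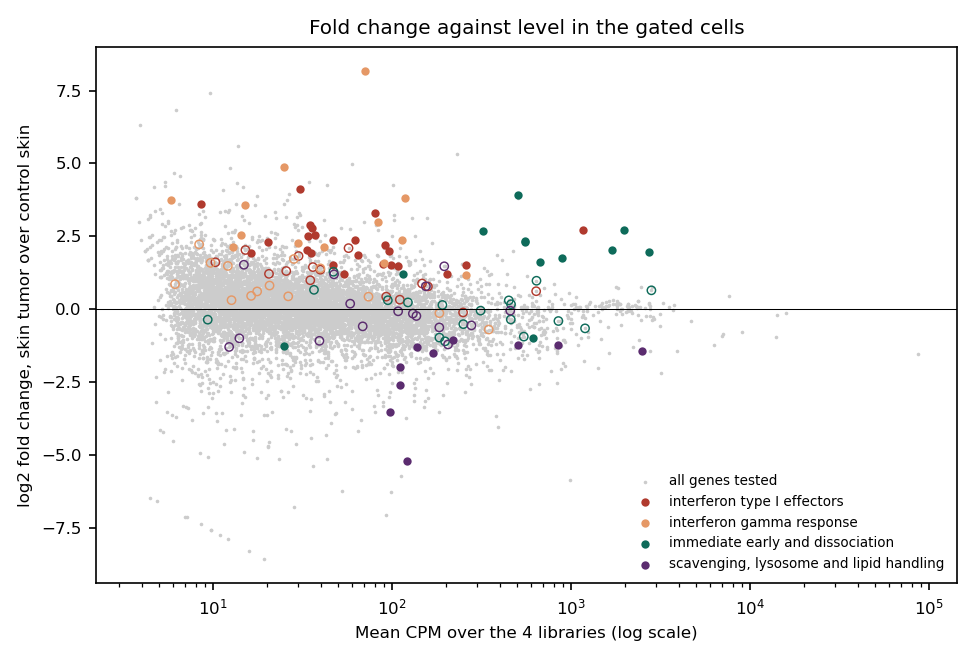
log2 fold change of skin tumor over control skin (y axis) against mean CPM over the 4 libraries (x axis, log scale) for the 8390 genes tested in the gated cells. Filled coloured points are called members of 4 lists and open points are members not called; 38 of 39 type I and 25 of 27 gamma list genes lie above 0, and 5 of 26 scavenging genes do.

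Markers of other cell types were present at different levels. Langerhans markers summed to 493 and 671 CPM in control skin and 342 and 447 CPM in tumor, with Il1r2 the most abundant and none of 6 tested called. Mature dendritic markers summed to 829 and 680 CPM against 639 and 765 CPM, with Cd274 the most abundant, and Ccl5 rose, 1 of 6 tested. T cell markers summed to 202 and 111 CPM in control skin and 42.7 and 52.9 CPM in tumor, with Trdc the most abundant, and of 6 tested Trbc1 and Trdc fell. Trdc had 49 and 28 UMIs in the control skins and 0 and 0 UMIs in the skin tumors. Cd3e, limited by the gate, had 15 and 14 UMIs in the control skins and 2 and 2 UMIs in the skin tumors. Without the 25 members that had a Cd3e UMI, 832 genes passed, 322 higher and 510 lower. Of the named genes, Ifit1, Ifit2, Cd86, Irf8, Ccr6, Ccl2, Clec10a, Csf2rb, Pfkfb4 and Egr2 then had adjusted p from 0.0535 to 0.0849. All 10 kept their direction. The log2 fold change of Ifit2 moved most, from 3.31 to 2.86, that of Ifit1 went from 4.12 to 3.89, and that of Cd86 moved least, from -1.12 to -1.14. Keratinocyte markers summed to at most 34.2 CPM and fibroblast and collagen markers to at most 37.6 CPM, with Col1a2 lower (10 and 12 UMIs in the control skins and 0 and 0 UMIs in the skin tumors). Cd79a of B cells, Retnlg of neutrophils and Ms4a2, Gata2 and Fcer1a of mast cells were at 0. Kit, a mast cell and progenitor receptor, rose (4.34 and 12.1 against 79.3 and 23.9 CPM, log2 fold change 2.71 ± 0.63 (SE), adjusted p = 0.0291), and the cycling gene Birc5 fell (17.4 and 19.7 against 2.22 and 3.42 CPM, log2 fold change -2.81 ± 0.54 (SE), adjusted p = 0.0169). Of the type 1 dendritic markers outside the gate, Irf8, Wdfy4 (25.2 and 40.2 against 396 and 169 CPM, log2 fold change 3.13 ± 0.44 (SE), adjusted p = 0.00629) and Ifi205 rose and Cadm1 fell (98.9 and 82.7 against 21.1 and 44.4 CPM, log2 fold change -1.59 ± 0.36 (SE), adjusted p = 0.028). The Langerhans marker Cd207 had 46 and 70 UMIs in the control skins and 0 and 0 UMIs in the skin tumors, and 14.4% and 9.09% of control Cd3e+ cells and no tumor Cd3e+ cell carried it at equal depth.

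The tumor effect in the gated cells was compared with that in C1q-high macrophages (48, 136, 1403 and 543 cells) through the interaction of gate and group, with the library as a term. The effects differed for 270 of 9398 genes (2.87%), with a higher effect in the gated cells for 60 and a lower effect for 210. With no filter on low counts, 790 genes differed. By themselves the macrophages had 29 called genes of 11472 tested. A gene called in one gate alone is not shown to differ.

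Plac8 differed in its response. In macrophages it was at 93.5 and 174 CPM in the control skins and 195 and 163 CPM in the skin tumors (log2 fold change 0.40, adjusted p = 0.641), and the difference of effects was 3.31 ± 0.26 (SE, log2; adjusted p = 0.00161). Ifitm3 in macrophages was at 588 and 711 CPM in the control skins and 1074 and 869 CPM in the skin tumors, a difference of 2.14 ± 0.19 (adjusted p = 0.0022). Over the type I interferon list, 3 of 42 genes had a higher effect in the gated cells (Bst2, Ifitm3 and Slfn5) and none a lower one, so for the other genes no difference was called. On the immediate early and dissociation list, 3 of 30 genes had a higher effect in the gated cells and 1 a lower one. Those higher were Jun, Hspa1a (difference 2.08 ± 0.34, adjusted p = 0.0183) and Hspa1b (1.62 ± 0.24, adjusted p = 0.0156). The lower one was Egr2 (-1.96 ± 0.35, adjusted p = 0.0274). Cxcl9 was called with a higher effect (6.87 ± 0.88, adjusted p = 0.00951), with macrophage levels of 520.4 and 12.2 CPM in the control skins and 866 and 471 CPM in the skin tumors, where the control libraries differed widely.

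Lower effects were called for Pla2g7, a lipoprotein-associated phospholipase, for Cd81 and for Flrt3. Pla2g7 was at 246 and 201 CPM in the control skins and 16.6 and 17.1 CPM in the skin tumors in the gated cells (log2 fold change -3.72 ± 0.27 (SE), adjusted p = 0.0013) and at 315 and 296 CPM in the control skins and 378 and 506 CPM in the skin tumors in macrophages. The difference of effects was -4.20 ± 0.26 (adjusted p = 0.000376). Cd81 in macrophages was at 199 and 165 CPM in the control skins and 349.7 and 305 CPM in the skin tumors, a difference of -4.22 ± 0.27 (adjusted p = 0.000376). Flrt3, an adhesion protein, was at 244 and 299 CPM in the control skins and 16.1 and 44.4 CPM in the skin tumors in the gated cells and at 18 and 30 CPM in the control skins and 35.9 and 97.2 CPM in the skin tumors in macrophages, a difference of -4.64 ± 0.30 (adjusted p = 0.000376). Ccl17 had a higher effect in the gated cells (difference 6.97 ± 0.44, adjusted p = 0.000376), with macrophage levels of 576 and 36.1 CPM in the control skins and 4.56 and 8.43 CPM in the skin tumors. Mgl2 had a lower effect in the gated cells (difference -1.40 ± 0.26, adjusted p = 0.0334), and in macrophages it stood at 293 and 236 CPM in the control skins and 230.2 and 267 CPM in the skin tumors. Kmo did not differ past the threshold (difference 1.14 ± 0.54, adjusted p = 0.328), and its macrophage level was at most 9.84 CPM. Lpl (difference -2.82 ± 0.43), Cd86 (-1.44 ± 0.22) and Lyz2 (-2.00 ± 0.18) also had lower effects in the gated cells, with adjusted p = 0.0156, 0.0156 and 0.00245.

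**Figure D5:**
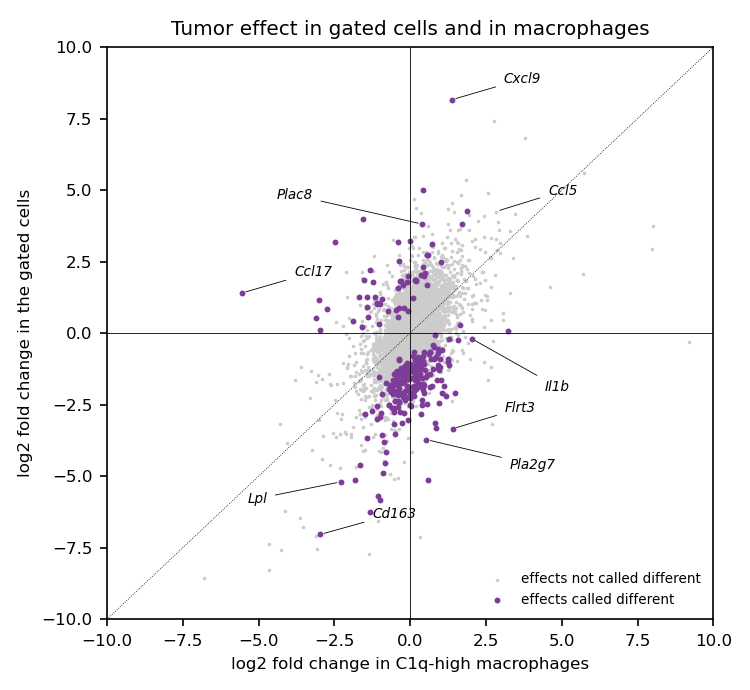
log2 fold change of skin tumor over control skin in the gated cells (y axis) against that in C1q-high macrophages of the same libraries (x axis), with 1 point per gene tested in all 3 fits. Purple points are genes whose effects were called different, and most of them lie below the dotted line of equal effects.

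Other dendritic gates give the levels a context, with no test, since the gates chose the cells. In mature dendritic cells (at least 4 UMIs of Ccr7 and Fscn1; 14, 23, 87 and 31 cells) Cd209a was at 825 and 668 CPM in the control skins and 217 and 137 CPM in the skin tumors and Mgl2 at 571 and 772 CPM in the control skins and 206 and 336 CPM in the skin tumors. Type 1 cells (at least 2 UMIs of Xcr1 and Clec9a; 12, 8, 56 and 8 cells) had Cd209a at 80.2 and 13.6 CPM in the control skins and 72.6 and 88.2 CPM in the skin tumors and Sirpa at 26.7 and 13.6 CPM in the control skins and 55.2 and 35.3 CPM in the skin tumors. The gated cells had more Sirpa than these in all 4 libraries. Ifitm3 was higher in both tumor libraries in the other dendritic gates too, at 393 and 729.6 CPM in the control skins and 1413 and 1038 CPM in the skin tumors in mature and 37.4 and 95.5 CPM in the control skins and 679 and 494 CPM in the skin tumors in type 1 cells. Cxcl9 in type 1 cells was at 5.35 and 6.82 CPM in the control skins and 969 and 1693 CPM in the skin tumors, and in mature cells at 178 and 7.11 CPM in the control skins and 385 and 435 CPM in the skin tumors. Plac8 was higher in both tumor libraries in all 3 dendritic gates, at 93.3 and 178 CPM in the control skins and 543 and 475 CPM in the skin tumors in mature cells and 16 and 54.5 CPM in the control skins and 432 and 370.3 CPM in the skin tumors in type 1 cells.

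The limits of the gate removed cells unevenly. The 24 members with exactly 2 UMIs of Cd209a and Flt3 had 331 CPM of Mgl2 pooled over libraries, and the 47 cells with 1 UMI had 176 CPM. Of the 24 members 12 came from tumor, and of the 47 cells 24 did. Among cells that met all other limits, that on Ccr7 and Fscn1 kept out 13 and 18 cells in control skin and 63 and 23 in tumor. The limit on Xcr1 and Clec9a kept out 5 and 5 against 50 and 6 cells, and that on Top2a and Mki67 kept out 7 and 7 against 26 and 5. The C1q limit kept out 7 and 21 against 16 and 19 cells. The Cd207 limit kept out 20 and 18 cells in control skin and 0 in tumor, and the Cd3e limit kept out 25 and 39 against 0 and 3. The 10 members with 3 to 5 C1q UMIs had 965 CPM of Mgl2, and the 10 cells with 6 to 8 had 1070 CPM.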

How the data were processed

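The 4 libraries (2 per group) were deposited as matrices of UMI counts per gene and cell, which the authors made with Cell Ranger (7.1.0 in the submitters' processing notes, 7.0.1 in a file header) on mm10. These deposited counts are raw. Counts of the gated cells were summed per library. The 14 gate genes and mitochondrial genes were left out of tests. edgeR 4.0.16 in R 4.3.3 used TMM factors, filterByExpr and the quasi-likelihood test, with a call at an adjusted p of 0.05 (Benjamini-Hochberg). The interaction fit had library, gate and gate by group terms. DESeq2 1.42.0 was an alternative, as were other gate limits, UMI ranges, filters, normalization and left-out libraries. Steps were tested on simulated data. Shares have exact 95% binomial intervals, and a count of 0 was set to a floor of 3 UMIs over the group. PCR and capture are not covered by these intervals. Depth was 539179 to 1581996 UMIs per summed library. Gene coordinates are from GENCODE M21, in which 31011 of 31053 identifiers were found.

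Genes were named by rule: Mgl2, Kmo and the gate genes; 6 genes the study names for dendritic cells; up to 3 called genes per direction and list with the largest change; 10 per direction overall (mean CPM of at least 20 in the higher group, no overlap); the 5 most abundant called per direction; and 5 by interaction. Other genes were chosen after their values were seen. The members and lists were chosen with earlier results of these data known. List symbols absent from the files, such as Cxcl11 and Mx2, were not analysed here. Some genes and an allele are not reported here, though list counts include those genes.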

Additional observations from a re-analysis of the deposited data

Results flagged for a closer look

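The tumor effect of 5 genes differed between the gated cells and the C1q-high macrophages by the interaction test, as log2 differences of effects. It was lower in the gated cells for Pla2g7 (-4.20), Cd81 (-4.22) and Flrt3 (-4.64), and higher for Ccl17 (6.97) and Plac8 (3.31). For Ccl17, the gated cells themselves did not pass (adjusted p = 0.235), and the macrophage level was 576 and 36.1 CPM in the control skins and 4.56 and 8.43 CPM in the skin tumors. Control skin replicate 1 alone was high in macrophages.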

How the results depend on the processing

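The named genes that were called and could be tested kept their sign under each alternative. Genes that were not called could change sign, as Stat2 (0.33 to -0.14, log2) and Cd80 (0.28 to -0.56) did in members with a Flt3 UMI. Against 1080 called genes (412 higher, 668 lower), DESeq2 called 679 (203 higher), no filter on low counts called 1852 (725 higher, 1127 lower), equal numbers of members called 370 (164 higher, 206 lower) and members with a Flt3 UMI called 518 (217 higher, 301 lower). Leaving out 1 library gave 168 to 2153 called genes, 50 to 813 higher and 118 to 1340 lower. A group left with 1 library was assumed to vary like the other. The 270 genes with a different effect in macrophages became 790 with no filter and 182 to 568 without 1 library. The share difference of -0.26 percentage points became 0.187 in cells of 5000 to 30000 UMIs and -2.62 of cells with at least 10 H2-Ab1 UMIs, and ranged from -0.597 to 0.0813 without 1 library. Of the 98 named genes called, 76 of 98 passed with DESeq2, 57 of 88 with equal numbers of members, 56 of 83 in members with a Flt3 UMI, 82 of 92 without the members that had a Cd3e UMI, 42 of 97 without control skin replicate 1, 47 of 98 without control skin replicate 2 and 87 of 94 without skin tumor replicate 1. Labels give both groups the replicate numbers 1 and 2 but no pairing, and same-numbered libraries did not deviate together (correlation -0.02 over 8413 genes). With the replicate block 940 genes were called, 326 higher and 614 lower. The comparison with type 1 dendritic cells was not run, as 2 libraries held 8 such cells. The causes were not tested. The smallest library, skin tumor replicate 2 with 35 members, limits depth most.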
